A study of Mus musculus with 8 samples.

Results

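The genes described here are 10 neighbours on distal mouse chromosome 7 that belong to 2 imprinted domains, *Igf2-H19* and *Kcnq1ot1*. They were chosen by name, with no measured value in the rule, and are *H19*, *Igf2*, *Ascl2*, *Cdkn1c*, *Kcnq1ot1*, *Phlda2*, *Slc22a18*, *Tssc4*, *Cd81* and *Nap1l4*, 10 of the 26263 genes counted. Poly(A) RNA was sequenced from hybrid mouse embryonic stem cells (ESCs) and from neural precursor cells (NPCs) taken at day 12 of *in vitro* corticogenesis. B/J cells come from the male line BJE2, bred from a C57BL/6 female and a JF1 male, while J/B cells come from the male line JBE6 of the reverse mating. The 4 groups, each with 2 replicate libraries, are thus B/J ESCs, J/B ESCs, B/J NPCs and J/B NPCs. ESCs were grown in a medium with LIF, BMP4 and an inhibitor of GSK3-β, and no group carries an engineered allele. Corticogenesis took place on Matrigel in a defined medium with dorsomorphin homolog 1 and a supplement lacking vitamin A, so stage and medium changed together. Each cross is represented by 1 line, so line and direction of cross cannot be told apart. The counts add both parental alleles, so the parental origin of the RNA was not analysed here.

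An imprinted gene is transcribed mainly from the allele of 1 parent, and an imprinting control region with methylation on a single parental allele directs this choice. In the *Igf2-H19* domain, CTCF on the unmethylated maternal control region keeps shared enhancers away from *Igf2*, so that *Igf2*, a fetal growth factor, is read from the paternal chromosome and the non-coding RNA *H19* from the maternal chromosome. In the neighbouring domain, the control region is the promoter of *Kcnq1ot1*, a long non-coding RNA of the paternal chromosome that silences genes around it, among them *Cdkn1c*, a cell cycle inhibitor, and the placental genes *Phlda2* and *Ascl2*.

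Both long transcripts of the first domain also hold a microRNA, and the mature forms are shown because they are the short RNAs that *H19* and *Igf2* carry. The seed, bases 2 to 8, is in capitals, and the sequences are those of RefSeq on GRCm38.p6, chromosome 7, minus strand. Each seed differs from the other 3. The miR-675 forms come from an exon of *H19* (chr7:142577078-142577099 for the 3p form and chr7:142577112-142577133 for the 5p form) and the miR-483 forms from within *Igf2* (chr7:142654932-142654952 for 3p and chr7:142654968-142654989 for 5p).
miR-675-5p: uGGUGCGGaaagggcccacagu
miR-675-3p: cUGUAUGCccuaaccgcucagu
miR-483-5p: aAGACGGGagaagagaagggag
miR-483-3p: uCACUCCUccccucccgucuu

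Promoter entries of RefSeq (GRCm38.p6) were found for 7 of the 10 genes, with 4 start sites for *Igf2*. The 250 bases before the start are shown for *Kcnq1ot1*, whose promoter is the control region itself, for 2 of the genes it is known to silence, and for the only *Igf2* start whose window holds CCAAT. Capitals mark the CCAAT box motif CCAAT, the TATA box motif TATAAA and the GC box motif GGGCGG, each searched as written and as its reverse complement, with no overlap among them in these windows. All 4 lie on the minus strand, *Kcnq1ot1* at chr7:143296548-143296797, *Ascl2* at chr7:142969265-142969514, *Phlda2* at chr7:143502525-143502774 and *Igf2* at chr7:142657497-142657746.
Kcnq1ot1: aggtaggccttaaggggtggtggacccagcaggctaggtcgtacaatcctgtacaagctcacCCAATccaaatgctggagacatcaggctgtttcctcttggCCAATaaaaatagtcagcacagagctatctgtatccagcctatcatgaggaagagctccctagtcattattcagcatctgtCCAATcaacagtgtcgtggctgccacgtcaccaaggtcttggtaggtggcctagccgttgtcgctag
Ascl2: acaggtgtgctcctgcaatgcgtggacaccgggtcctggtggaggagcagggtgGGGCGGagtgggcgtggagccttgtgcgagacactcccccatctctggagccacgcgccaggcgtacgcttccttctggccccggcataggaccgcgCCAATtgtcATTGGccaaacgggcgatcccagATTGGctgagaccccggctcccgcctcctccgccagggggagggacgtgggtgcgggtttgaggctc
Phlda2: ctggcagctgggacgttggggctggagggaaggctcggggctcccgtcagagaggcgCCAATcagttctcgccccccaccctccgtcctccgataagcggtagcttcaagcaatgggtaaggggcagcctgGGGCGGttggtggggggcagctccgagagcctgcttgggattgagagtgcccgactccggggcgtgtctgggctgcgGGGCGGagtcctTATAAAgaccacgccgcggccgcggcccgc
Igf2: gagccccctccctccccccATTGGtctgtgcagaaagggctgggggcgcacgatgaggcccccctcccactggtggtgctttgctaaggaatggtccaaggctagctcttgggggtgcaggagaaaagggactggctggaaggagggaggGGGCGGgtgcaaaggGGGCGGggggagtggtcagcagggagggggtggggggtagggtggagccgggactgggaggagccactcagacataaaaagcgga

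The *Kcnq1ot1* window holds 3 CCAAT, at 188, 148 and 67 bases before the start, and 5 CpG. The *Ascl2* window also holds 3 CCAAT, at 99, 90 and 67 bases, with 1 GGGCGG and 19 CpG. *Phlda2* has 1 CCAAT, 2 GGGCGG, 21 CpG and a TATAAA that lies 30 bases before the start. The *Igf2* window has 1 CCAAT, 2 GGGCGG and 6 CpG, while the window of *Slc22a18* has no CpG at all. Of 32851 promoter windows of this length, 33.8% hold a CCAAT, 2.79% hold 3 or more, 12.4% hold a TATAAA and 32.7% hold a GGGCGG, and the median is 6 CpG. These letters describe the windows and are no evidence that a factor is bound there.

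Between 22537138 and 32706015 reads per library fell on genes. Levels are given as CPM (reads of a gene relative to all reads on genes), scaled between libraries by edgeR's TMM factors, and replicates 1 and 2 of a group are given in that order. All 10 genes passed the filter on low counts, which kept 16399 genes. The summed level of 8 pluripotency markers was 5282 to 8797 CPM in ESCs and 87.2 to 298 CPM in NPCs, and that of 8 neural precursor markers 247 to 317 CPM in ESCs and 509 to 1223 CPM in NPCs, where 7 of the 8 were called higher and *Pax6* was not (log2 fold change 1.77, edgeR adjusted p = 0.0606). Markers of other cells also rose. The 10 fibroblast and mesenchyme markers went from 9.81 to 81.9 CPM in ESCs to 817 to 2003 CPM in NPCs, and the 10 trophoblast and placenta markers from 61.4 to 195 CPM to 1099 to 3157 CPM, with 10 and 9 of them called higher. *Tpbpa*, *Prl2c2* and *Prl3d1*, which define trophoblast, had no count in any ESC library. With *Elf5*, they passed the filter on low counts only through the NPC libraries. So did *Col1a2*, *Prrx1*, *Dcn*, *Lum* and *Postn* of the mesenchyme markers, and *Fabp7*, *Hes5* and *Emx2* of the neural precursor markers. The filter fixed their direction, so these counts of calls are not read against the 37.5% of all genes tested that were called higher.

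In NPCs, 3 of the genes dominated the domains. *Igf2*, *H19* and *Cdkn1c* together made up 92.3% to 96.2% of the summed CPM of the 10 genes in NPC libraries, after 7.17% to 20.5% in ESC libraries. Over both crosses, 6 of the 10 genes were higher in NPCs (*H19*, *Igf2*, *Ascl2*, *Cdkn1c*, *Kcnq1ot1* and *Slc22a18*) and 2 were lower (*Phlda2* and *Nap1l4*) in the quasi-likelihood test of edgeR, taking adjusted p-values below 0.05. Among all genes tested, 37.5% were called higher and 31.9% lower, so a large share of the transcriptome differed. The 10 genes had a median log2 fold change of 1.34, beside 0.17 over all genes tested. All 4 NPC libraries lay above all 4 ESC libraries for 5 of the 10 genes, beside 35.3% of the genes tested, and below them for 1, beside 31.2%. In bulk RNA, a change in the share of cells that express a gene and a change in RNA per cell cannot be told apart. The labels do not say that replicates came from separate cultures, so p-values measure the spread between these libraries.

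**Figure D1:**
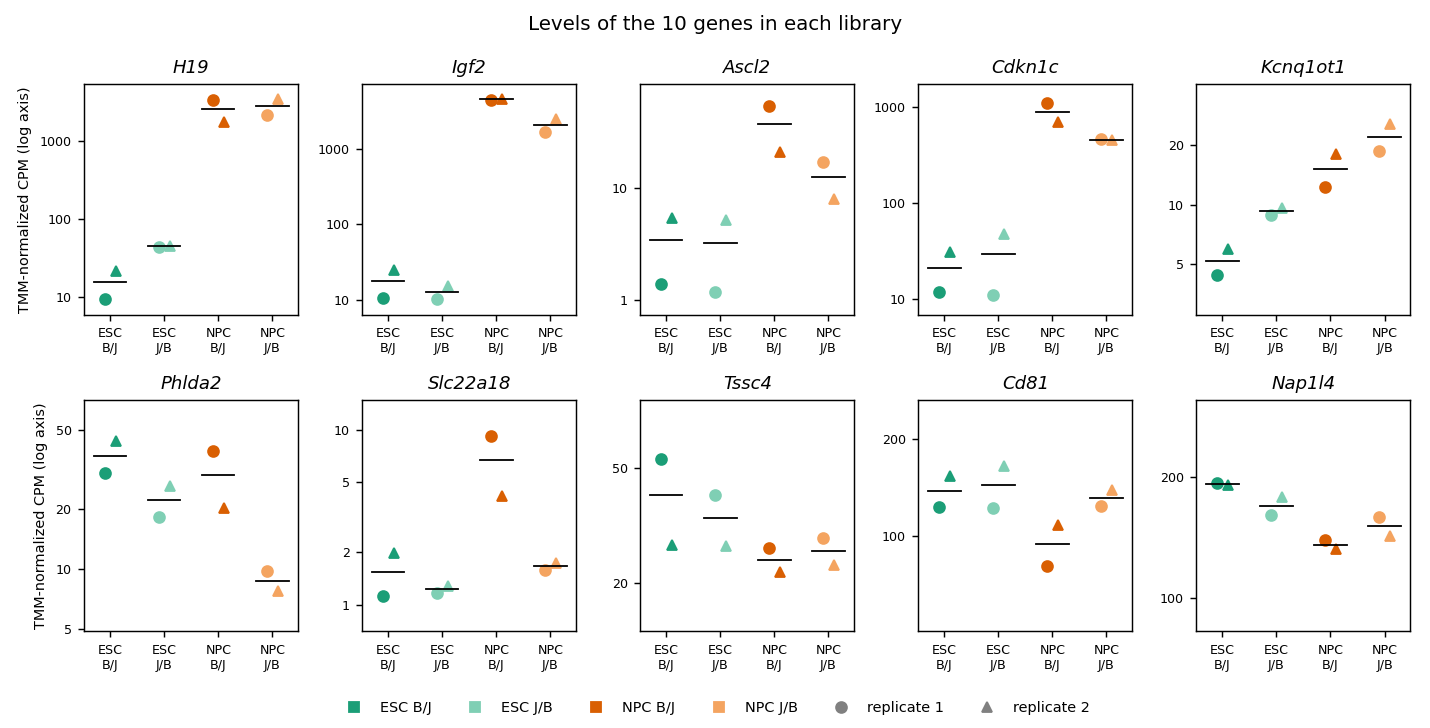
Level of each gene in each library, in TMM-normalized CPM on a log axis that differs between panels. Circles are replicate 1, triangles replicate 2 and bars group means (n = 2). *H19*, *Igf2*, *Ascl2*, *Cdkn1c* and *Kcnq1ot1* have all NPC libraries above all ESC libraries, while *Slc22a18* stands out only in B/J NPCs.

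*H19*, a maternally expressed non-coding RNA known to restrain growth, lies at chr7:142129262-142133957 on the minus strand (GRCm39). Its level was 9.33 and 21.2 CPM in B/J ESCs, 44.1 and 44.4 CPM in J/B ESCs, 3435 and 1792 CPM in B/J NPCs, and 2193 and 3452 CPM in J/B NPCs. Every NPC library had at least 40.3 times the level of the highest ESC library. On mean CPM *H19* was 91.3-fold higher in NPCs, and its log2 fold change was 6.71 (standard error 0.395, edgeR adjusted p = 1.76e-05).

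*Igf2*, the ligand of the IGF1 and insulin receptors in fetal growth, lies at chr7:142204503-142220694 on the minus strand, 86.7 kb from *H19*. It was read at 10.3 and 24.5 CPM in B/J ESCs, 10.03 and 15.2 CPM in J/B ESCs, 4526 and 4622 CPM in B/J NPCs, and 1665 and 2520 CPM in J/B NPCs. The stages were far apart, and in NPCs both B/J libraries lay above both J/B libraries. *Igf2* had the largest change of the 10 genes, with 222-fold higher mean CPM in NPCs and a log2 fold change of 7.70 (standard error 0.380, edgeR adjusted p = 1.13e-05). The summed fibroblast and mesenchyme markers, cells in which *Igf2* and *H19* are well expressed, were 2003 and 1494 CPM in B/J NPCs and 817 and 1965 CPM in J/B NPCs, and their part in the change of either gene was not tested.

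*Igf2* and *H19* share enhancers, and their counts can be set beside each other within a library, where no scaling enters. The ratio of *Igf2* to *H19* counts was 1.11 and 1.16 in B/J ESCs, against 0.227 and 0.343 in J/B ESCs. B/J NPCs had ratios of 1.32 and 2.58, and J/B NPCs of 0.759 and 0.730. At each stage both B/J libraries had the higher ratio, and *Igf2* outnumbered *H19* in all 4 B/J libraries and in no J/B library. The 95% exact binomial interval, which covers counting error only, spanned 1 in a single library, B/J ESC replicate 1 (0.917 to 1.34). The ratio was looked at with the levels known and was not tested.

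**Figure D2:**
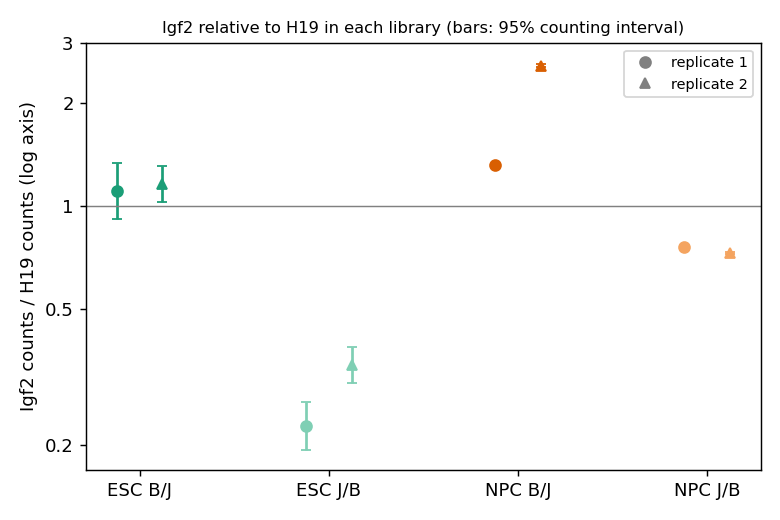
Ratio of *Igf2* counts to *H19* counts in each library, on a log axis, with 95% counting intervals (most are smaller than the symbols in NPCs). The J/B libraries lie between 0.227 and 0.759 and the B/J libraries between 1.11 and 2.58.

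*Mir483* had no count in ESCs and 9 to 29 counts in each NPC library, at least 17.3-fold higher when 3 counts over the 4 ESC libraries stand for 0. Its 73 bases lie within *Igf2* on the same strand, so reads of *Igf2* RNA may be counted there. These counts are thus no measure of the microRNA. *Mir675* had no count in any library, but its 84 bases lie wholly in an *H19* exon on the same strand, so reads there fall on both annotations and the 0 is no measure of its level. The antisense transcript *Igf2os*, which shares 254 bases of exon with *Igf2*, rose with it (log2 fold change 6.44, edgeR adjusted p = 1.05e-05). Its counts were 1.07% to 5.32% of those of *Igf2*. The paper's methods give a stranded alignment, but the sources used here do not say whether counting took the strand into account. Reads where genes on opposite strands overlap may thus have been assigned by strand or left out as ambiguous. Ambiguous reads were 0.355% to 0.554% of the reads of a library.

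*Cdkn1c* encodes p57, an inhibitor of cyclin-dependent kinases that is expressed from the maternal chromosome and restrains growth. It lies at chr7:143012069-143014806 on the minus strand, 164 kb from the *Kcnq1ot1* start. It was read at 11.8 and 30.5 CPM in B/J ESCs, 10.9 and 47.0 CPM in J/B ESCs, 1089 and 688 CPM in B/J NPCs, and 458 and 449 CPM in J/B NPCs. NPC libraries lay well above ESC libraries, and B/J NPCs above J/B NPCs. Mean CPM was 26.8-fold higher in NPCs and the log2 fold change was 4.68 (standard error 0.535, edgeR adjusted p = 0.000180). The 2 other inhibitors of the same family, *Cdkn1b* (p27) and *Cdkn1a* (p21), moved in opposite directions. *Cdkn1b* had a log2 fold change of 1.71 (edgeR adjusted p = 0.00286) and *Cdkn1a* one of -0.92 (edgeR adjusted p = 0.00116), the latter no longer called when libraries were scaled to *Gapdh*, *Gusb* and *Tbp* (-0.30, adjusted p = 0.202).

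*Kcnq1ot1*, the silencing RNA of the domain, lies at chr7:142731402-142850327 on the minus strand, inside and antisense to *Kcnq1*. Its level was 4.43 and 5.99 CPM in B/J ESCs, 8.85 and 9.63 CPM in J/B ESCs, 12.3 and 18.0 CPM in B/J NPCs, and 18.6 and 25.6 CPM in J/B NPCs. The stages did not overlap, and at each stage both J/B libraries were above both B/J libraries. *Kcnq1ot1* was 2.58-fold higher in NPCs on mean CPM, and its log2 fold change was 1.40 (standard error 0.238, edgeR adjusted p = 0.00121). *Kcnq1* itself, a potassium channel gene, had 4 counts over all ESC libraries and 25 over all NPC libraries and did not pass the filter, and the exons it shares with *Kcnq1ot1* span 834 bases. *Cdkn1c*, a gene that *Kcnq1ot1* is known to silence in cis, had 1.23 to 5.10 times the counts of *Kcnq1ot1* in ESCs and 17.5 to 88.7 times in NPCs, so both rose, and the coding gene by more.

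*Ascl2* encodes a transcription factor of the early placenta. It was read at 1.39 and 5.43 CPM in B/J ESCs, 1.17 and 5.24 CPM in J/B ESCs, 54.3 and 21.0 CPM in B/J NPCs, and 17.1 and 8.01 CPM in J/B NPCs. The stages did not overlap, although J/B NPC replicate 2 came close to the ESCs, and within each group 1 replicate had at least 2.13 times the level of the other. The log2 fold change was 2.71 (standard error 0.639, edgeR adjusted p = 0.00619). *Ascl2* (chr7:142520564-142523006, minus strand) is itself a gene of trophoblast, and the summed trophoblast and placenta markers varied with it. They were 103 and 195 CPM in B/J ESCs, 61.4 and 173 CPM in J/B ESCs, 3157 and 1613 CPM in B/J NPCs, and 1638 and 1099 CPM in J/B NPCs. In each of the 4 groups the replicate with more *Ascl2* had the higher marker sum, as had the replicate with more *Cdkn1c* or *Phlda2*, and the part of such cells in the changes of these 3 genes was not tested. The largest part of the sum in ESCs was *Tfap2c*, at 89.1 and 112 CPM in B/J and 39.5 and 126 CPM in J/B. In NPCs it was *Krt8*, at 1366 and 675 CPM in B/J and 748 and 470 CPM in J/B. Among the markers with no ESC count, *Tpbpa* and *Prl2c2* were higher in replicate 1 of both NPC groups, as was *Ascl2*. *Prl3d1* was higher in replicate 2 of B/J NPCs (0.399 and 0.670 CPM) and in replicate 1 of J/B NPCs (6.91 and 2.87 CPM).

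*Phlda2*, which encodes a pleckstrin-homology protein that limits placental growth, lies at chr7:143055282-143056887 on the minus strand. It was read at 30.4 and 44.3 CPM in B/J ESCs, 18.2 and 26.3 CPM in J/B ESCs, 39.3 and 20.4 CPM in B/J NPCs, and 9.75 and 7.78 CPM in J/B NPCs. Only the J/B NPC libraries lay below all ESC libraries. The log2 fold change over both crosses was -0.83 (standard error 0.267, edgeR adjusted p = 0.0238). This call was lost without replicate 2 of B/J ESCs (-0.68), J/B ESCs (-0.68), B/J NPCs (-0.64) or J/B NPCs (-0.76), on library totals (-0.37) and with scaling to *Gapdh*, *Gusb* and *Tbp* (-0.24), while the sign was kept in each.

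*Slc22a18*, a member of the organic cation transporter family, is the next gene before *Phlda2* and is transcribed in the other direction, at chr7:143027466-143053072 on the plus strand. It had low counts, 22 to 46 per ESC library and 54 to 324 per NPC library. Its level was 1.13 and 1.97 CPM in B/J ESCs, 1.17 and 1.28 CPM in J/B ESCs, 9.23 and 4.21 CPM in B/J NPCs, and 1.59 and 1.74 CPM in J/B NPCs. The B/J NPCs were above every other library, and the J/B NPCs lay within the range of the ESCs. The log2 fold change over both crosses was 1.28 (standard error 0.393, edgeR adjusted p = 0.0197), and it was no longer called without B/J ESC replicate 1 (1.11), B/J NPC replicate 1 (0.94) or J/B NPC replicate 2 (1.25).

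The remaining 3 genes are widely expressed and known to be imprinted mainly in the placenta. *Cd81* (chr7:142606314-142621672, plus strand), which encodes a tetraspanin of the cell surface, was read at 123 and 153 CPM in B/J ESCs, 122 and 165 CPM in J/B ESCs, 80.6 and 108 CPM in B/J NPCs, and 124 and 139 CPM in J/B NPCs. *Tssc4* (chr7:142622865-142624830, plus strand), which encodes a splicing-related protein, was read at 53.6 and 27.2 CPM in B/J ESCs, 40.4 and 26.9 CPM in J/B ESCs, 26.3 and 21.8 CPM in B/J NPCs, and 28.7 and 23.1 CPM in J/B NPCs. For both genes the stages overlapped, and neither passed the test without a replicate block, with log2 fold changes of -0.34 for *Cd81* (edgeR adjusted p = 0.0951) and -0.56 for *Tssc4* (edgeR adjusted p = 0.0811). Without B/J ESC replicate 2, *Tssc4* was called lower (-0.76, edgeR adjusted p = 0.0216). Exons of *Trpm5* on the opposite strand cover 316 bases, or 16.1%, of those of *Tssc4*.

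*Nap1l4* (chr7:143067315-143102890, minus strand), which encodes a histone chaperone, was the steadiest gene between replicates. It was read at 193 and 191 CPM in B/J ESCs, 161 and 178 CPM in J/B ESCs, 139 and 133 CPM in B/J NPCs, and 159 and 142 CPM in J/B NPCs. The lowest ESC library was just above the highest NPC library, and both are J/B replicate 1. The log2 fold change was -0.34 (standard error 0.112, edgeR adjusted p = 0.0282), and it was also called lower with RLE factors and by DESeq2, but not with no filter on low counts (-0.31, edgeR adjusted p = 0.0741). Its sign turned to 0.14 on library totals and to 0.29 with scaling to *Gapdh*, *Gusb* and *Tbp*. Over all genes tested the median log2 fold change moved from 0.17 with TMM factors to 0.65 and 0.80 with these scalings. Leaving out a library ended the call in 6 of 8 cases, at log2 fold changes of -0.36 to -0.29, those being B/J ESC replicates 1 and 2, J/B ESC replicate 2, B/J NPC replicates 1 and 2, and J/B NPC replicate 2.

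Per kilobase of merged annotated exons, the order of the genes differed between the stages. In ESCs *Cd81* was highest (37.4 ± 5.78 CPM per kb, SD, n = 4), followed by *Phlda2*, *Tssc4*, *Nap1l4*, *Cdkn1c*, *H19*, *Igf2*, *Ascl2*, *Slc22a18* and *Kcnq1ot1*. Neighbours in this order overlapped in their library ranges, except for *Slc22a18* and *Kcnq1ot1*. In NPCs *H19* led with 954 ± 299.7 CPM per kb, then *Igf2* with 541 ± 239 and *Cdkn1c* with 311 ± 139, whose ranges overlapped in that order. A gap followed, since *Cd81*, next in order, was at 29.9 ± 6.59 CPM per kb and overlapped none of the libraries of *Cdkn1c*. *Phlda2*, *Ascl2*, *Tssc4* and *Nap1l4* came next with overlapping neighbours, and *Slc22a18* and *Kcnq1ot1* were each apart from the gene before. The last place of *Kcnq1ot1* rests on its length, as its merged exons span 93852 bases and the canonical transcript 1722 bases. With canonical lengths, chosen after the annotation was seen, it ranked 7th in ESCs and 9th in NPCs. Other places depend on the length too, as *Nap1l4* moved from rank 4 to 2 in ESCs and from 8 to 5 in NPCs, and the other genes apart from *Kcnq1ot1* by 1 or 2 places, except *Cd81* in both stages and *H19*, *Igf2*, *Cdkn1c* and *Tssc4* in NPCs, which kept theirs.

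Within each cross the changes of *H19*, *Igf2*, *Cdkn1c* and *Kcnq1ot1* held. In B/J, 6 genes were called higher and 1 lower by edgeR, beside 30.1% and 25.6% of all genes tested. In J/B, 4 were higher and 1 lower, beside 29.1% and 25.3%. The B/J log2 fold changes were 7.42 for *H19*, 8.03 for *Igf2*, 5.39 for *Cdkn1c* and 1.54 for *Kcnq1ot1*, and the J/B values 5.99, 7.37, 3.97 and 1.26. The call for *Kcnq1ot1* was lost in B/J without ESC replicate 1 (1.34) and in J/B without ESC replicate 1 (1.20) or NPC replicate 2 (1.01).

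The other genes differed in which cross they were called. *Ascl2* was called in B/J (3.46, edgeR adjusted p = 0.0152) but not in J/B (1.96, adjusted p = 0.0948). *Slc22a18* was called in B/J (2.12, edgeR adjusted p = 0.0142) and not in J/B (0.44, adjusted p = 0.522). *Phlda2* was called lower in J/B (-1.34, edgeR adjusted p = 0.0199) and not in B/J (-0.32, adjusted p = 0.482), where its sign turned to 0.13 on library totals, 0.15 with scaling to the 3 reference genes, and 0.08 without NPC replicate 2. *Nap1l4* was called lower in B/J (-0.50, edgeR adjusted p = 0.0289) but not with no filter on low counts (-0.49, adjusted p = 0.0621), with a value of -0.03 on library totals and 0.01 with scaling to the 3 reference genes.
These calls rest on few libraries. In B/J, *Ascl2* was lost without ESC replicate 1 (2.79) or NPC replicate 1 (2.63), *Slc22a18* without ESC replicate 1 (1.77) or NPC replicate 1 (1.45), and *Nap1l4* without any of the 4 B/J libraries (-0.53 to -0.46). In J/B, *Phlda2* was lost without ESC replicate 2 (-1.04), NPC replicate 1 (-1.54) or NPC replicate 2 (-1.19), on library totals (-0.87) and with scaling to the 3 reference genes (-0.62). Of the alternatives without a replicate block, *Ascl2* was called in J/B without ESC replicate 2 (3.43), with scaling to the 3 reference genes (2.61) and by DESeq2 (1.98).

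**Figure D3:**
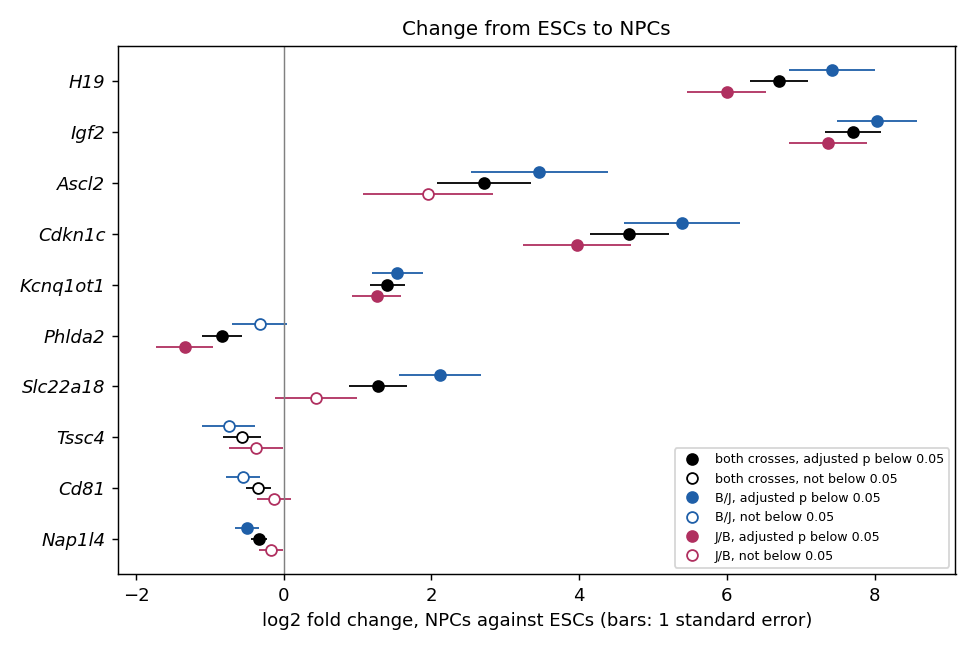
Log2 fold change from ESCs to NPCs (TMM factors) over both crosses (black), within B/J (blue) and within J/B (red), with bars of 1 standard error and filled symbols where the edgeR adjusted p is below 0.05. *Igf2* and *H19* lie between 5.99 and 8.03 in both crosses, and *Slc22a18* and *Phlda2* are called in a single cross each. The negative values of *Nap1l4*, *Cd81* and *Tssc4* over both crosses change sign when libraries are scaled to *Gapdh*, *Gusb* and *Tbp*, and so does that of *Phlda2* in B/J.

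Whether the change from ESCs to NPCs differs between the crosses was tested by an interaction term. None of the 10 genes, and 0% of all genes, passed in edgeR, where 573 genes and none of the 10 had an unadjusted p below 0.05. DESeq2 called 11 genes and limma-voom 0, none of them among the 10. The largest differences were those of *Slc22a18* (-1.68, J/B minus B/J, unadjusted p = 0.0650), *Ascl2* (-1.51, unadjusted p = 0.252) and *H19* (-1.43, unadjusted p = 0.0531), each with an edgeR adjusted p of 0.9999. The split of calls between the crosses is therefore not shown to be a difference between them.

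In ESCs, J/B cells had 2.90-fold more *H19* and 1.78-fold more *Kcnq1ot1* than B/J cells on mean CPM. With a library left out, the log2 difference ran from 1.06 to 2.24 for *H19* and from 0.62 to 1.05 for *Kcnq1ot1*. Neither gene passed the adjustment (log2 differences of 1.54 with unadjusted p = 0.0101 and 0.83 with unadjusted p = 0.0400, both with an edgeR adjusted p of 1). They were the 2 of the 10 genes with an unadjusted p below 0.05, beside 346 of all genes tested, and edgeR called 0% of genes here, DESeq2 10 genes and limma-voom 0, with none of the 10 called by any of these tools. Both J/B ESC libraries were above both B/J ESC libraries for these 2 genes, beside 11.2% of all genes tested, and below them for *Phlda2* and *Nap1l4*, beside 11.3%.

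In NPCs, B/J cells had more *Slc22a18* (4.04-fold), *Phlda2* (3.40-fold), *Ascl2* (2.998-fold), *Igf2* (2.19-fold) and *Cdkn1c* (1.96-fold) than J/B cells on mean CPM, and for each of these 5 genes both B/J libraries were above both J/B libraries, beside 21.1% of all genes tested. The reverse held for *Kcnq1ot1*, *Cd81* and *Nap1l4*, 3 of the 10 genes, beside 18.1% of all genes tested. edgeR called none of the 10 genes and 0.00610% of all genes, that is 1 gene. At an unadjusted p below 0.05 were 1050 genes, among them *Phlda2* (log2 difference -1.77, J/B minus B/J, unadjusted p = 0.00201, adjusted p = 0.734), *Slc22a18* (-2.01, unadjusted p = 0.00705, adjusted p = 0.734) and *Igf2* (-1.13, unadjusted p = 0.0245, adjusted p = 0.755). With a library left out, the differences ran from -2.18 to -1.23 for *Phlda2*, -2.49 to -1.35 for *Slc22a18* and -1.47 to -0.89 for *Igf2*. Over all alternatives, that of *Ascl2* ran from -2.26 to -0.75. DESeq2 called 70 genes (0.427% of those tested), with *Phlda2* the only one of the 10 (adjusted p = 0.0103), and limma-voom 1 gene, none of the 10. *H19* did not follow *Igf2*, with a log2 difference of 0.11 whose sign turned without B/J NPC replicate 2 (-0.30) or J/B NPC replicate 2 (-0.26). The trophoblast and placenta markers, at 3157 and 1613 CPM in B/J NPCs and 1638 and 1099 CPM in J/B NPCs, overlapped between the crosses. Of the other marker sums, 5 did not overlap. The 8 neural precursor markers were at 509 and 923 CPM in B/J NPCs and 1223 and 1172 CPM in J/B NPCs. The 4 endothelium markers were at 817 and 421 CPM in B/J and 272 and 235 CPM in J/B. Most of this was *Cdh5*, at 772 and 385 CPM in B/J and 256 and 210 CPM in J/B. *Pecam1* and *Kdr* were also higher in both B/J libraries, but *Tek* in both J/B libraries. *Pecam1* fell from ESCs to NPCs (log2 fold change -2.35, edgeR adjusted p = 0.000556). The 8 endoderm markers were at 22.9 and 16.2 CPM in B/J and 69.5 and 65.9 CPM in J/B. The 8 pluripotency markers were at 156 and 298 CPM in B/J and 87.2 and 137 CPM in J/B, and the 6 muscle markers at 13.7 and 11.4 CPM in B/J and 16.8 and 15.2 CPM in J/B. The part of such cells in the differences between the crosses was not tested.

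The replicates of a group differed by more than counting error, and the 10 genes did so in different ways. In ESCs, replicate 2 was higher for 8 of the 10 genes (B/J) and for 9 (J/B), beside 48.4% and 47.7% of all genes tested. *Ascl2* had 3.91 and 4.47 times more in replicate 2 of B/J and J/B ESCs, and *Cdkn1c* 2.60 and 4.32 times more. In NPCs the order of *Ascl2* was the opposite, with replicate 2 at 0.387 and 0.469 of replicate 1, and replicate 2 was higher for 3 of the 10 genes (B/J) and for 5 (J/B), beside 49.2% and 50.2% of all genes tested. In J/B ESCs the 2 *H19* values differed by a factor of 1.01 and in B/J ESCs by 2.27.

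**Figure D4:**
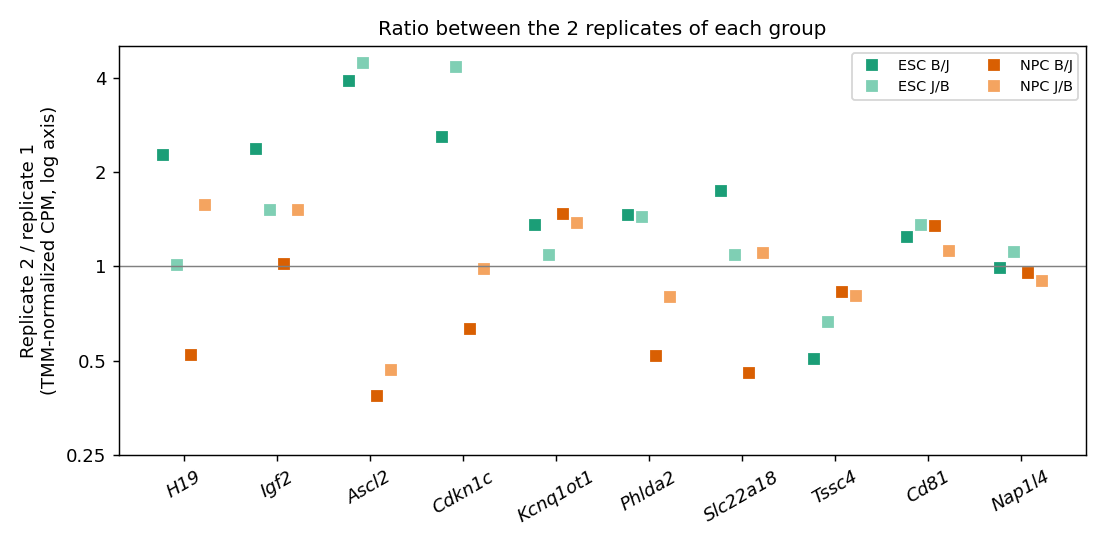
Level in replicate 2 divided by that in replicate 1 for each gene and group (TMM-normalized CPM, log axis). *Ascl2* lies at 3.91 and 4.47 in ESCs and at 0.387 and 0.469 in NPCs, whereas *Nap1l4* stays between 0.896 and 1.11.

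A list of other genes of the 2 domains and their flanks held 22 genes in the files, of which 17 were tested. Of these, 12 were higher, 3 lower and 2 not called in NPCs (edgeR), beside 37.5% and 31.9% of all genes tested. *Th*, *Trpm5*, *Tnnt3*, *Tnni2*, *Syt8* and *Mir483* passed the filter on low counts only through the NPC libraries, and *Tspan32* only through the ESC libraries. Their directions were fixed by the filter, so the count is no measure of the domain as a whole. The median log2 fold change was 3.97 with this filter, 1.75 without one and 0.90 for the 11 genes with a mean of at least 1 CPM, of which 8 were higher and 2 lower. *Th*, the tyrosine hydroxylase of catecholamine synthesis, rose from 6 counts over the ESC libraries to 1314 over the NPC libraries (142-fold scaled by TMM, 95% counting interval 65.2 to 388). *Trpm5*, a cation channel gene beside *Tssc4*, rose from 1 count to 185 (120-fold, interval 21.3 to 4771). *Osbpl5*, a lipid-binding protein gene at the far end of the *Kcnq1ot1* domain, had a log2 fold change of 4.95 (edgeR adjusted p = 1.54e-05) and was named after its value was seen. *Tnfrsf22* (-2.42), *Cars* (-1.33) and *Tspan32* (-3.02, from 43 counts over the ESC libraries to 8 over the NPC libraries) were the genes called lower. *Tnfrsf22* was at 33.0 and 21.2 CPM in B/J ESCs, 136 and 27.7 CPM in J/B ESCs, and 7.63 to 9.49 CPM in NPCs. The size of its fall thus rests in part on J/B ESC replicate 1.

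**Figure D5:**
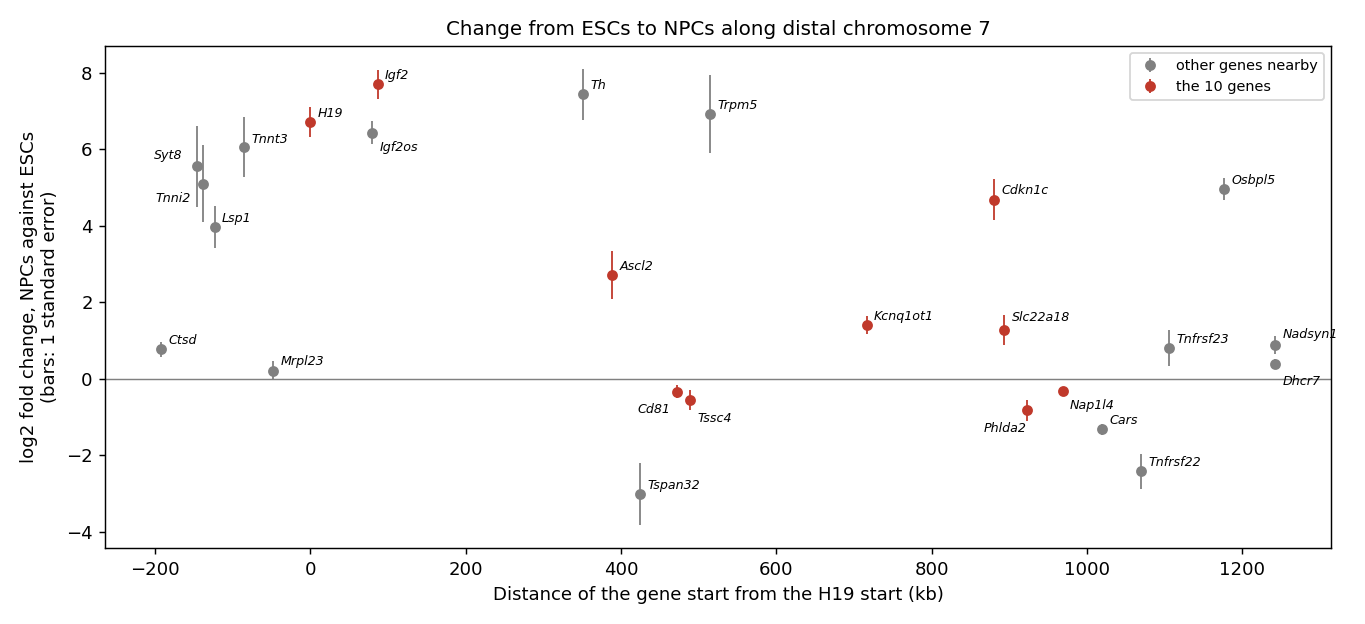
Log2 fold change from ESCs to NPCs (TMM factors, bars of 1 standard error) against the distance of each gene start from the *H19* start in kb, for the 10 genes (red) and the other tested genes nearby (grey), *Mir483* left out because it had no count in ESCs. *H19* is at 6.71 and *Igf2* at 7.70, *Cdkn1c* at 4.68 lies next to *Slc22a18* at 1.28 and *Phlda2* at -0.83, and the small negative values of *Cd81*, *Tssc4* and *Nap1l4* change sign with scaling to *Gapdh*, *Gusb* and *Tbp*.

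Of 15 tested genes of the IGF axis, which act with IGF2, 11 were higher in NPCs, 1 lower and 3 not called by edgeR, beside 37.5% and 31.9% of all genes tested, with a median log2 fold change of 2.11. *Igf1*, *Igfbp6* and *Igfbp7* passed the filter on low counts only through the NPC libraries, so their direction was fixed by it and the count is not read against that share. The sister ligand *Igf1* (9.39), with 7 counts over the ESC libraries and 2627 over the NPC libraries, and the binding proteins *Igfbp7* (9.02) and *Igfbp5* (8.57) had the largest fitted changes. *Igf1* had no count in B/J ESCs, and its fitted value was 11.68 in B/J and 7.11 in J/B. Its counts, scaled by TMM, give a 244-fold rise (95% counting interval 118 to 607). *Igfbp7* had 43 counts over the ESC libraries, 42 of them in J/B ESC replicate 1, and its fitted value was 12.73 in B/J and 5.30 in J/B, while its counts, scaled by TMM, give a 78.3-fold rise (95% counting interval 58.04 to 108). Beside these, named after their values were seen, the receptor genes *Igf1r* (2.21), *Insr* (1.58) and *Igf2r* (0.87), whose product clears IGF2, were called higher, as was the substrate *Irs1* (3.62). Within the crosses, *Igf2r* was at 1.495 in B/J and 0.24 in J/B. *Igf2bp1*, which encodes a protein that binds *Igf2* mRNA, was the gene called lower (-1.72, edgeR adjusted p = 0.000102).

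Of 15 imprinted genes elsewhere in the genome that act on growth, 15 were higher in NPCs by edgeR, with a median log2 fold change of 2.45, beside 37.5% of all genes tested. The list was chosen with earlier results of these data known, so the count is not read against that share. *Dcn* and *Rtl1* passed the filter on low counts only through the NPC libraries, which fixed their direction. With no filter 14 of the 15 were called, and at a mean of at least 1 CPM 14 were tested and called, with a median of 2.21. This list shares *Igf2r* with the IGF axis. The matrix proteoglycan gene *Dcn* (6.51), *Zim1* (6.02) and the retrotransposon-derived *Rtl1* (5.83) had the largest fitted changes, *Dcn* and *Rtl1* from 5 and 4 counts over the ESC libraries. On counts scaled by TMM, *Dcn* was 99.4-fold, *Zim1* 68.8-fold and *Rtl1* 25.8-fold higher (95% counting interval of *Rtl1* 9.89 to 95.9), and *Nnat*, with a fitted value of 5.82, was 55.2-fold higher and thus ahead of *Rtl1*. *Dcn* is also one of the 10 fibroblast and mesenchyme markers.

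Of 10 genes whose products read or keep the allelic methylation and chromatin of control regions, 8 were lower in NPCs, none higher and 2 not called by edgeR, with a median log2 fold change of -1.54, beside 31.9% of all genes tested called lower. This list too was chosen with earlier results of these data known, so the count is not read against that share. The largest falls were those of *Dppa3* (-5.78), which protects methylation in the early embryo, *Zfp57* (-2.91), which binds methylated control regions, and *Trim28* (-2.60), its corepressor. *Ctcf*, named because it acts at the *H19* control region, had a log2 fold change of -0.95 (edgeR adjusted p = 0.000451). With scaling to *Gapdh*, *Gusb* and *Tbp*, 6 of the 10 were lower and 1, *Ehmt2*, higher (0.42), and *Ctcf* was not called (-0.31, edgeR adjusted p = 0.149).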

How the data were processed

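Per the paper's methods, TopHat2 was run by the authors on mm39, masked at JF1 SNPs, with a refGene-based annotation, and properly paired alignments of mapping quality 20 or more were kept. The submitters' processing notes also name HTSeq, DESeq2 and edgeR, but no source used here gives the use of strand in counting or the kit and sequencer of each library. Raw read counts were deposited by the authors for 26263 genes, unnormalized, and the 5 closing entries of unassigned reads were left out (5.76% to 10.9% of reads were on no gene). Tests were run under R 4.3.3 in edgeR 4.0.16 (TMM, filterByExpr with a minimum count of 10, robust quasi-likelihood fit of 4 group means), limma 3.58.1 and DESeq2 1.42.0. P-values were two-sided and adjusted over the 16399 genes tested by the Benjamini-Hochberg method, with a threshold of 0.05. The tests were tested on simulated counts. Alternatives were other scalings, filters, tools and blocks, a 2-fold threshold, and each library left out in turn, where the remaining library of a group took its spread from the other groups. Positions and exon lengths came from GENCODE vM39 (GRCm39) and sequences from RefSeq tables on GRCm38.p6, so coordinates of the former and the latter are not on 1 scale.

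The 10 genes, the gene lists and the marker lists were chosen with earlier results of these data known. By rule, all 10 genes, the 3 largest called changes of each list and neighbours that overlap a gene were named, and others are marked as chosen later. Counting intervals are exact at the 95% level and cover counting error only, and 3 counts stand for a count of 0. Counts of the 2 replicates of a group differed by more than sampling noise.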

Additional observations from a re-analysis of the deposited data

How the results depend on the processing

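Over the 8 libraries left out in turn, edgeR called 5 to 8 of the 10 genes between the stages over both crosses, 3 to 7 within B/J and 3 to 5 within J/B. The fewest were called without J/B NPC replicate 2 (5), B/J ESC replicate 1 (3) and J/B NPC replicate 2 (3), and 4 were called within B/J without B/J NPC replicate 1. Between the crosses and for the interaction, 0 were called in each of these fits. DESeq2 called 1 gene, *Phlda2*, between the crosses in NPCs. Of the CDK inhibitors, 1 was called with scaling to *Gapdh*, *Gusb* and *Tbp*. The stage changes of *H19*, *Igf2*, *Ascl2*, *Cdkn1c* and *Kcnq1ot1* over both crosses kept their direction and call in all 19 alternatives.

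For the changes named in the report, signs turned in the cases that follow, as log2 fold changes. On library totals they were 0.13 for *Cd81* and 0.14 for *Nap1l4* over both crosses, 0.13 for *Phlda2* in B/J, and 0.12 for *Tssc4*, 0.35 for *Cd81* and 0.31 for *Nap1l4* in J/B. With scaling to *Gapdh*, *Gusb* and *Tbp* they were 0.0747 for *Tssc4*, 0.29 for *Cd81* and 0.29 for *Nap1l4* over both crosses, 0.15 for *Phlda2* and 0.0102 for *Nap1l4* in B/J, and 0.38 for *Tssc4*, 0.61 for *Cd81* and 0.57 for *Nap1l4* in J/B, the last called higher (edgeR adjusted p = 0.0378). With a library left out, values ran from -0.869 to 0.0811 for *Phlda2* in B/J, -0.335 to 0.12 for *Cd81* in J/B, -0.961 to 0.28 for *Igf2* between the crosses in ESCs, and -0.30 to 0.637 for *H19* between the crosses in NPCs (also -0.26). Of the differences not named there, those between the crosses in ESCs ran over all alternatives from -1.55 to 1.21 for *Ascl2*, -0.97 to 1.30 for *Cdkn1c*, -0.68 to 0.11 for *Slc22a18*, -0.68 to 0.30 for *Tssc4* and -0.19 to 0.26 for *Cd81*, in NPCs from -0.09 to 0.34 for *Tssc4*, and the interaction from -0.19 to 0.79 for *Tssc4* and -2.27 to 0.0058 for *Cdkn1c*. The cause was not tested, beyond the shift of the median gene that the scalings bring.

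The labels number the replicates 1 and 2 in each group. Differences between replicates correlated at 0.518 between the crosses in ESCs and 0.587 in NPCs, but at 0.0489 to 0.0915 across stages, so same-numbered libraries deviated together within a stage and hardly across stages. The labels give no reason to pair them, and the report uses no block. With a replicate block, edgeR called 10 genes between the stages over both crosses, 9 within B/J and 5 within J/B, and with a replicate block within each stage 10, 9 and 6, adding *Tssc4* (-0.52 in both, edgeR adjusted p = 0.0243 and 0.00693) and *Cd81* (-0.34 in both, adjusted p = 0.0222 and 0.0128) as lower over both crosses, and with the latter block *Ascl2* in J/B (2.22, adjusted p = 0.000355).

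Depth limits *Slc22a18* and *Ascl2* most, at 22 to 46 and 22 to 127 counts per ESC library. Per kilobase levels moved with canonical lengths, most for *Kcnq1ot1* (4.195 in ESCs and 10.8 in NPCs), and also for *Nap1l4* (78.7 and 62.4).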

Other observations

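Genes whose pattern over the 8 libraries was most like that of 4 of the genes were found by the root mean square difference of log2 CPM, each gene centred on its own mean, among 14080 genes with a mean of at least 1 CPM. For *H19* these were *Shisal1* (0.399), *Svep1* (0.449), an extracellular matrix protein gene, and *Bmp5* (0.465), a signalling ligand. For *Igf2* they were *Gbp6* (0.303) and *Ifi27* (0.363), both interferon-inducible, and *Gjb2* (0.414), a gap junction gene. For *Cdkn1c* they were *Syt13* (0.308), *Slc25a24* (0.308) and *Fosl2* (0.354), and for *Kcnq1ot1* *Fam184a* (0.119), *2900052L18Rik* (0.169) and *Ids* (0.185). These values describe the shared pattern over libraries, in which the stage difference is the largest part, and carry no test.

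Among the 10 genes, *H19* and *Igf2* differed by 1.04 on this measure, more than *Cd81* and *Nap1l4* (0.234) or *Tssc4* and *Nap1l4* (0.323), and *Ascl2* was closer to *Slc22a18* (1.07) and *Cdkn1c* (1.10) than to the other 7. *Phlda2* and *Cdkn1c*, both silenced by *Kcnq1ot1* in the placenta, were 2.95 apart. The counts of *Cdkn1c* were 0.387 to 1.79 times those of *Phlda2* in ESCs and 27.7 to 57.7 times in NPCs.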
